A study of Mus musculus with 2 samples.

Results

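The B cells of brown adipose tissue (BAT) were 337 of 4295 cells kept from a pair of single-cell RNA libraries of sorted leukocytes, 252 of 2279 in the control library and 85 of 2016 in the Adipo Δ/Δ library. Cells were selected on measured values. A kept barcode held at least 200 detected genes and at most 10% of its unique molecular identifiers (UMIs, 1 for each captured RNA molecule) from mitochondrial genes. A B cell was then chosen by at least 2 UMIs of *Cd79a*, *Cd79b* and *Ms4a1* in sum, by no UMI of *Cd3d*, *Cd3e*, *Cd3g* or *Csf1r*, and by fewer than 5 of *Jchain*, which leaves out antibody-secreting cells.

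Both libraries were made from CD45+ Dapi- cells of BAT from male C57Bl/6 mice, 16 weeks old by the labels (a figure legend and the injection schedule of the study give a younger age), of the genotype AdipoQ-CreERT2 ATGLfl/fl. Control mice were given vehicle. Adipo Δ/Δ mice were given tamoxifen at 10 mg/ml, 200 uL into the peritoneum on alternate days for 1 week, and all mice then rested for 2 weeks. All animals therefore carried the tamoxifen-dependent Cre, which the adiponectin promoter drives in adipocytes and not in leukocytes, and the floxed alleles of *Pnpla2*, the gene of the triglyceride lipase ATGL. Since the vehicle group had no tamoxifen, the drug and the deletion cannot be told apart. The number of mice behind each library was not stated. Each condition was 1 library, so no difference between the conditions has a replicate check and no p is given. The 95% intervals printed after values are exact (Clopper-Pearson for shares, Poisson for sums, conditional binomial for ratios) and cover counting error only. Ratios between the libraries are the Adipo Δ/Δ value divided by the control value.

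B cells recognise antigen through a membrane antibody, IgM or IgD, whose signal is passed into the cell by the paired chains encoded by *Cd79a* and *Cd79b*. Recirculating follicular B cells carry much IgD and the low-affinity IgE receptor CD23 (*Fcer2a*). Innate-like B-1 cells and marginal zone B cells carry more IgM and little CD23, and B-1 cells are known as residents of serous cavities and of fat-associated lymphoid clusters. B cells also present antigen to T cells on MHC class II.

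The B cells were shallow compared with their neighbours. Their median was 1778.5 UMIs (505 to 14332) and 700 detected genes per cell in the control library and 1975 UMIs (524 to 11220) and 767 genes in the Adipo Δ/Δ library. T cells, chosen by the mirrored rule of at least 2 *Cd3* UMIs and no B cell gene UMI, held medians of 4019 and 4856 UMIs. The summed UMIs of the B cells were 526023 and 217331, and levels are given as UMIs scaled to a sum of 1000000 per class and library (CPM). To compare shares of cells with a UMI, cells were thinned to 1000 UMIs, which kept 203 control and 69 Adipo Δ/Δ B cells and left out 49 and 16. The median mitochondrial share per B cell was 2.46% and 3.57%, and that of *Gm42418*, a transcript that overlaps ribosomal RNA repeats, 8.21% and 3.73%. *Gm42418* also differed between the T cells of the libraries, with medians of 9.70% and 4.81%.

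The libraries shared 4 barcodes, and 2 of the B cell barcodes were also found in the other library. No doublet caller was run. In place of it, B cells holding at least 10 UMIs of another cell type's transcripts were counted, and they numbered 6 in the control library and 4 in the Adipo Δ/Δ library. In the control library, 2 of them held 8187 and 2699 haemoglobin UMIs and another held 86 UMIs of *Gzma*, a granzyme of cytotoxic lymphocytes. In the Adipo Δ/Δ library, 1 held 79 *Gzma* UMIs, 1 held 55 UMIs of the neutrophil gene *S100a8*, 1 held 36 UMIs of *Siglech*, a marker of plasmacytoid dendritic cells, and 1 held 12 haemoglobin UMIs. The Siglech cell had 3 UMIs of the B cell genes used for selection and no *Igkc* or *Ebf1* UMI. Second values without these cells are given beside several results.

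*Pnpla2* was low in B cells, with 17 UMIs (32.3 CPM) in the control and 10 UMIs (46.0 CPM) in the Adipo Δ/Δ library, a ratio of 1.42 (0.583 to 3.29). The gene is deleted in adipocytes, so its level in B cells does not check the labels.

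The selection threshold fell in a sparse stretch of the counts. Among cells that met the other limits, 20 control cells held 1 UMI of the 3 selecting genes, 10 held 2, 12 held 3, 78 held 4 to 9 and 152 held 10 or more. Cells just outside the threshold, with 1 UMI, had 158 CPM of *Igkc*, the kappa light chain, and 18.6 CPM of *Ebf1*, a transcription factor that sets the B cell fate. Cells just inside it, with 2 UMIs, had 7310 CPM of *Igkc* and 1302 CPM of *Ebf1*. In the Adipo Δ/Δ library 11 cells lay just outside and 5 just inside, with 46.5 and 6786 CPM of *Igkc*.

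The genes beyond the rule matched the label. All 15 genes of the B lineage list were at least 2-fold higher in B cells than in T cells in both libraries, beside 6.21% of 6122 genes tested (380) with the same pattern. Because genes of one cell go together and the cells were chosen by B cell genes, this is a description. Among the transcription factors, *Ebf1* (chromosome 11, 44617317 to 45008091, GRCm38) stood at 1162 CPM in the control and 1339 CPM in the Adipo Δ/Δ library and at 1.28 and 0 CPM in T cells. *Pax5*, which holds cells in the B lineage, stood at 158 and 207 CPM and was at 0 UMIs in the T cells of both libraries. *Spib*, a factor of the ETS family, stood at 156 and 170 CPM, also with no UMI in T cells. The inhibitory lectin *Cd22* was measured at 230 and 253 CPM. For these 4 genes the counting interval of the ratio between the libraries included 1. Without the cells holding another type's transcripts, the ratio of *Ebf1* was 1.24 (1.07 to 1.43), an interval above 1. Those of *Pax5*, *Spib* and *Cd22* still included 1.

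**Figure D1:**
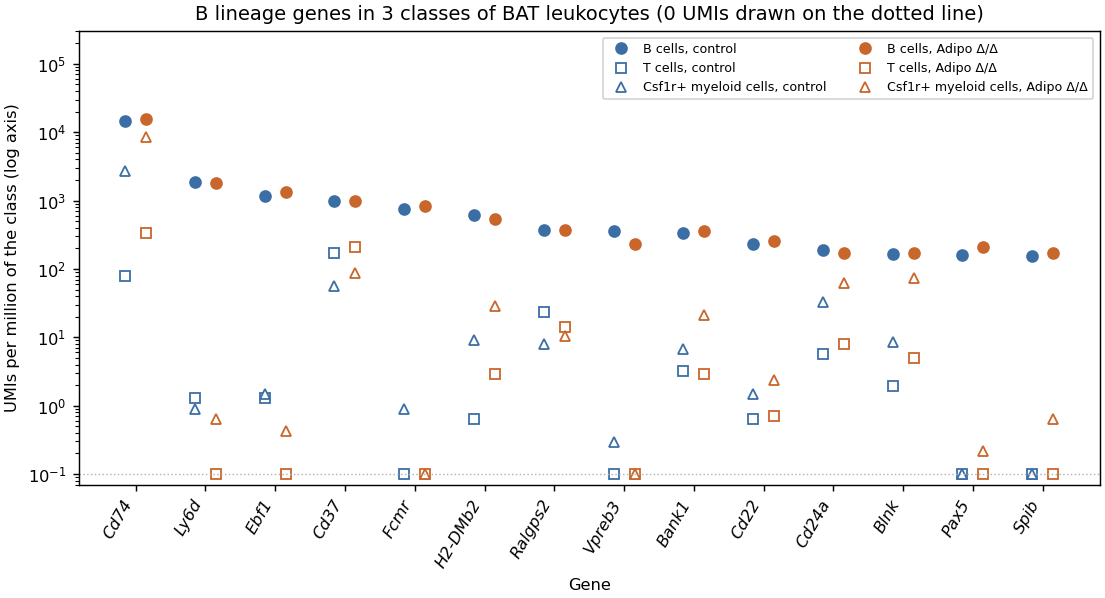
Levels of 14 of the 15 B lineage genes in CPM of each class (y axis, log scale) for B cells (filled circles), T cells (squares) and Csf1r+ myeloid cells (triangles), in the control (blue) and Adipo Δ/Δ (orange) libraries. Each B cell point lies above the T cell and myeloid points of its gene and library, and the antigen presentation gene *Cd74* is the highest in B cells, at 14718 and 15865 CPM.

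The gene with the largest ratio of B cells to all other kept cells was *Vpreb3* (ENSMUSG00000000903, chromosome 10, 75943057 to 75949657), whose product binds antibody chains during their assembly. Its B cell level was 363 CPM in the control library and 235 CPM in the other, a ratio of 0.646 (0.465 to 0.884), and over both libraries it was 534 times the level in all other kept cells. *Pax5* (245 times), *Ebf1* (244), *Fcmr*, the Fc receptor for IgM (236), *Fcer2a* (208) and *Cr2*, the complement receptor 2 (154), also stood among the first 15. The selecting genes *Ms4a1* and *Cd79a* had ratios of 215 and 195. In the same 15 were *Hbb-bt*, *Hba-a2*, *Hbb-bs* and *Hba-a1*, the haemoglobin chains of red cells, and 10886 of the 10948 haemoglobin UMIs of control B cells lay in the 2 cells named above.

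Promoters are shown for 3 of these B cell genes, because they hold short motifs known to bind B cell transcription factors. The windows run from 250 bases before to 50 after the RefSeq gene start (GRCm38.p6), and capitals mark each match on either strand to the octamer ATGCAAAT, bound by Oct factors, the EBF core CCCNNGGG or the ETS core GGAAGT. *Vpreb3* lies at chr10:75948050-75948349 on the plus strand, *Spib* at chr7:44532022-44532321 on the minus strand and *Cd79a* at chr7:24897247-24897546 on the plus strand.
Vpreb3: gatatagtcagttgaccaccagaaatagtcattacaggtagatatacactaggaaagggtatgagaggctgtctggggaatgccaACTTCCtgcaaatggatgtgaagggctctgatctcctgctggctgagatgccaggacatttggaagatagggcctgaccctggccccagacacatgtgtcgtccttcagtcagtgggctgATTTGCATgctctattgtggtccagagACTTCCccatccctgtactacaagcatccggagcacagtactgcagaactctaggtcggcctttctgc
Spib: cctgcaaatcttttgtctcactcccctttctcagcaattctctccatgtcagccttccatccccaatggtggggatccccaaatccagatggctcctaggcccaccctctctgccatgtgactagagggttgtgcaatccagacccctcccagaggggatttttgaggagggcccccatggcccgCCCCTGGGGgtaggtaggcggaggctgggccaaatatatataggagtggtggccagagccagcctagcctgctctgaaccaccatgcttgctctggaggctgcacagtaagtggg
Cd79a: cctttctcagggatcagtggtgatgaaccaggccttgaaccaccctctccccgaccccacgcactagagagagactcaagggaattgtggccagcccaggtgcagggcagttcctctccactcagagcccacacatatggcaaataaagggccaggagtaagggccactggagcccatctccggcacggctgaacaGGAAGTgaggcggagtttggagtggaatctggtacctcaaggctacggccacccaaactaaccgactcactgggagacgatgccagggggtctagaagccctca
*Vpreb3* held 1 octamer and 2 ETS cores, *Spib* held 2 EBF cores that overlap each other, and *Cd79a* held 1 ETS core. Over all 27025 promoters of this length, 1.75% held the octamer, 13.4% the EBF core and 24.1% the ETS core. Of the 11 B lineage genes with a promoter in the table, 2 held the octamer, 4 the EBF core and 4 the ETS core. Of 5 T cell genes with a promoter, 0 held the octamer, 0 the EBF core and 2 the ETS core. Of 12 genes among the first 15 with a promoter, 1 held the octamer, 2 the EBF core and 4 the ETS core. The 2 with the EBF core were *Hba-a1* and *Hba-a2*. The 3 promoters shown were picked for their matches. A match is a description of the letters and not a measured binding site.

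The question of follicular against innate-like identity was addressed by gene lists for each kind. Several follicular genes were widely detected. *Ighd*, the constant region of IgD (chromosome 12, 113406604 to 113416324), gave 573 UMIs (1089 CPM) in the control library and 227 UMIs (1044 CPM) in the Adipo Δ/Δ library. After thinning, 67.5% of control B cells (60.6 to 73.9) and 65.2% of Adipo Δ/Δ B cells (52.8 to 76.3) held an *Ighd* UMI, and no thinned T cell of either library did. Before thinning the shares of B cells were 77.8% and 84.7%. *Fcer2a* (CD23) stood at 424 and 410 CPM and was found in 38.4% (31.7 to 45.5) and 37.7% (26.3 to 50.2) of thinned B cells and in no thinned T cell. Between the libraries the ratio was 0.959 for *Ighd* (0.819 to 1.12) and 0.966 for *Fcer2a* (0.747 to 1.24), so the levels of both were close in the libraries.

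Other follicular genes followed. *Klf2*, a transcription factor of quiescent recirculating lymphocytes, was found in 56.2% and 56.5% of thinned B cells and in 52.2% and 42.2% of thinned T cells. *Foxp1*, a factor that keeps lymphocytes quiescent, was found in 45.8% and 40.6% of B cells and 18.3% of T cells in each library. *Cr2*, shared with the marginal zone list, was found in 11.8% and 8.70%, and *Tnfrsf13c*, the receptor for the survival factor BAFF, in 15.3% and 20.3%, both with at most 0.641% of T cells. Of the 13 genes, 8 were at least 2-fold higher in B cells than in T cells in both libraries, beside 6.21% of 6122 genes tested. All 13 genes of the follicular list were tested between the libraries. None lay past 2-fold, beside 2.26% and 0.916% of all genes higher and lower, so this count says little about the list. Their median ratio was 0.966 beside 1.06 over the 1638 genes tested. *Fcrl1*, an Fc receptor-like protein, had the lowest ratio of the list, 0.553 (0.2999 to 0.962), from 70 and 16 UMIs.

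Most genes of the B-1 list gave few UMIs. *Cd5*, a surface marker of B-1a cells and T cells, gave 1 UMI in the B cells of each library and stood at 64.2 and 94.0 CPM in T cells. *Spn* (CD43) had 3 and 2 UMIs, and *Bhlhe41*, a transcription factor of B-1a cells, 5 and 3. *Zbtb32*, a repressor known from B-1 cells, had 0 UMIs in the control library and 8 in the Adipo Δ/Δ library. In thinned control B cells 0 of 203 cells held a *Zbtb32* UMI, which by a floor of 3 counts allows up to 1.48% of cells with a UMI (an exact upper limit of 1.80%) and sets no limit on cells that express the gene. Only 4 of the 18 B-1 genes had enough UMIs to be tested (*S100a6*, *Vim*, *Ahnak* and *Tnfrsf13b*), and the first 3 of these are also expressed by T and myeloid cells. *Tnfrsf13b* was not sparse, with 94 and 35 UMIs (191.4 and 182.5 CPM) without the cells holding another type's transcripts. *S100a6* was the 1 of the 4 past 2-fold, beside 2.26% of all genes higher. The list's median ratio was 1.80 in B cells and 1.70 in T cells. It was 1.97 without the cells holding another type's transcripts, where *Vim* also lay past 2-fold at 2.18 (1.74 to 2.71). Of the 153 Adipo Δ/Δ *Vim* UMIs then left, 68 and 22 lay in 2 deep cells, of 11220 and 10472 UMIs. The same cells held 91 and 24 of the 131 *S100a6* UMIs left. No ratio without both cells is given here. The list's median was 1.36 without the top cell of each gene. The sum of the list went from 1025 to 2107 CPM.

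Counts of B-1 genes were uneven among Adipo Δ/Δ cells. A set of 9 B-1 genes was chosen as little expressed by other leukocytes. The set's levels in other leukocytes are not given here. Of these genes, 24 UMIs lay in 16 of 252 control cells, at most 4 in a cell. In the Adipo Δ/Δ library 29 UMIs lay in 10 of 85 cells, a higher share of cells. Part of both sums lay in cells holding another type's transcripts. The control cell with 4 was the one with 86 *Gzma* UMIs. Among Adipo Δ/Δ cells, the one with 79 *Gzma* UMIs held 5, the one with neutrophil transcripts 2 and the Siglech cell 1. Whether the counts in these mixed cells came from B-1 cells was not tested. A single Adipo Δ/Δ cell of 11220 UMIs held 13 of the 29, with 6 *Zbtb32*, 43 *Ighm* and 0 *Ighd* UMIs, 0 of *Fcer2a*, and 91 *S100a6*, 68 *Vim* and 46 *Lgals1* UMIs. Another, of 10472 UMIs, held 2 *Zbtb32*, 77 *Ighm*, 0 *Ighd* and 0 *Fcer2a* UMIs. These 2 cells were chosen for naming after their values were seen.

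Marginal zone, germinal centre and immature genes were also sparse. Of the marginal zone list, *Cd1d1* had 8 and 3 UMIs, *S1pr3* none in either library and *Notch2*, which is needed for this fate, 50 and 30 (95.1 and 138 CPM). *Mzb1*, a chaperone of IgM that follicular cells also express, was the exception at 536 and 364 CPM, a ratio of 0.678 (0.522 to 0.873). Its share of thinned B cells was 38.4% (31.7 to 45.5) and 20.3% (11.6 to 31.7), against 0.321% and 0% of T cells. The 12 germinal centre genes together gave 23 and 21 UMIs. Of the immature genes, *Cd93* gave 1 UMI in each library and *Rag2*, *Vpreb1* and *Igll1* none. *Vpreb3* and *Cd24a* were the members of the immature list above the count minimum, and both also belong to the B lineage list.

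**Figure D2:**
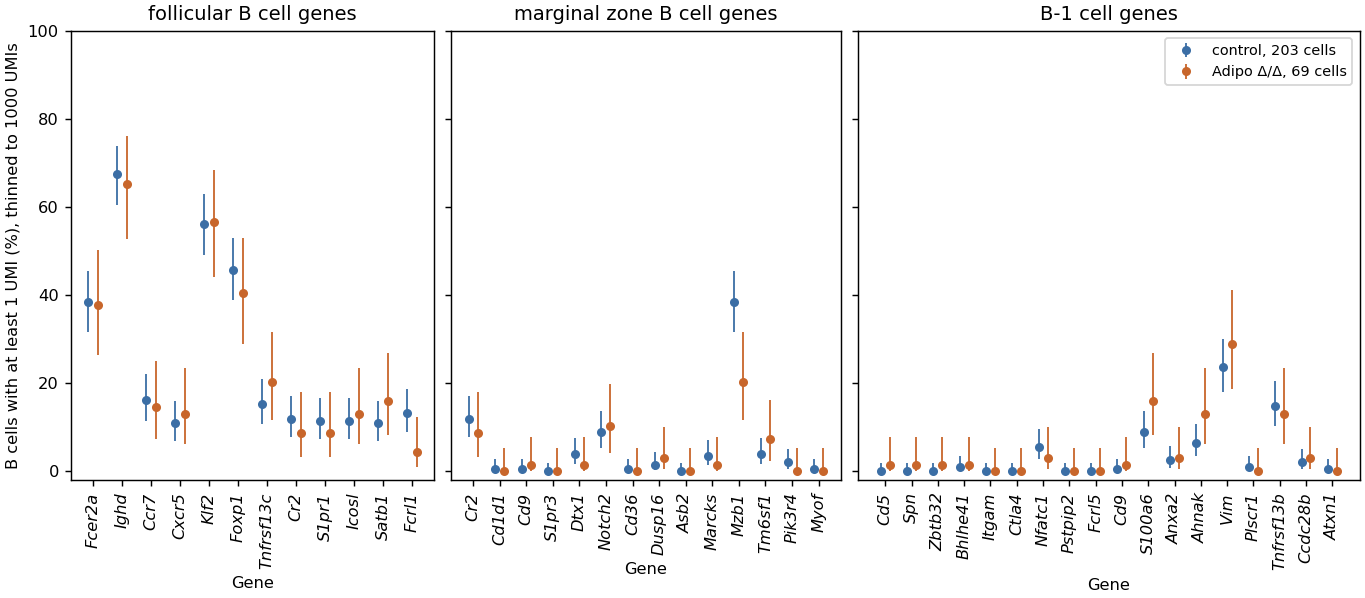
Share of B cells with at least 1 UMI (y axis, %) for genes of the follicular, marginal zone and B-1 lists, in cells thinned to 1000 UMIs of the control (blue, 203 cells) and Adipo Δ/Δ (orange, 69 cells) libraries, with Clopper-Pearson 95% intervals as bars. *Ighd*, *Klf2*, *Foxp1* and *Fcer2a* stand highest among the follicular genes drawn. Of the B-1 list, *Cd5*, *Spn* and *Zbtb32* are at 0% in the control library and 1.45% in the other, while *Vim* and *Tnfrsf13b* stand higher.

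The antibody heavy chain genes placed nearly all cells before class switching. *Ighm*, the constant region of IgM, was found in 239 of 252 control and 85 of 85 Adipo Δ/Δ B cells, and both *Ighm* and *Ighd* in 188 and 72. *Ighm* reached 3477 and 3244 CPM in B cells against 203 and 177 CPM in T cells. The shares of cells with *Ighd* UMIs at least as many as *Ighm* UMIs were 13.9% (9.87 to 18.8) and 16.5% (9.31 to 26.1). A UMI of a switched heavy chain gene was found in 2 cells of each library. In no cell did switched gene UMIs exceed those of *Ighm* and *Ighd*, which by the exact interval allows up to 1.45% of control and 4.25% of Adipo Δ/Δ B cells. Few UMIs came from variable segments, 26 and 11 for all heavy chain V genes, so clonal relations could not be described.

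For the light chains, *Igkc* was measured at 10260 and 10868 CPM, and the lambda constant genes *Iglc1*, *Iglc2* and *Iglc3* at 1365, 2270 and 1622 CPM in the control library and 1081, 1615 and 1072 CPM in the Adipo Δ/Δ library. Among cells with at least 3 light chain UMIs, lambda UMIs outnumbered kappa UMIs in 39 of 248 control cells, or 15.7% (11.4 to 20.9), and in 7 of 82 Adipo Δ/Δ cells, or 8.54% (3.50 to 16.8). The ratio of these shares was 0.543 with an interval of 0.205 to 1.23, so counting error alone covers equality.

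Kappa and lambda UMIs were not exclusive. In kappa-dominated cells, *Iglc2* UMIs were found in 91.2% and *Iglc3* UMIs in 90.7% of control cells, and each in 85.3% of Adipo Δ/Δ cells, while *Iglc1* UMIs were found in 35.3% and 40.0%. The median cell drew 27.3% and 20.7% of its light chain UMIs from lambda genes. For comparison, *Iglc2* stood at 1.92 and 2.15 CPM in T cells. *Iglc2* and *Iglc3* are near-identical copies, so the split of reads between these 2 is uncertain. Whether the lambda UMIs of kappa-dominated cells came from those cells was not tested.

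**Figure D3:**
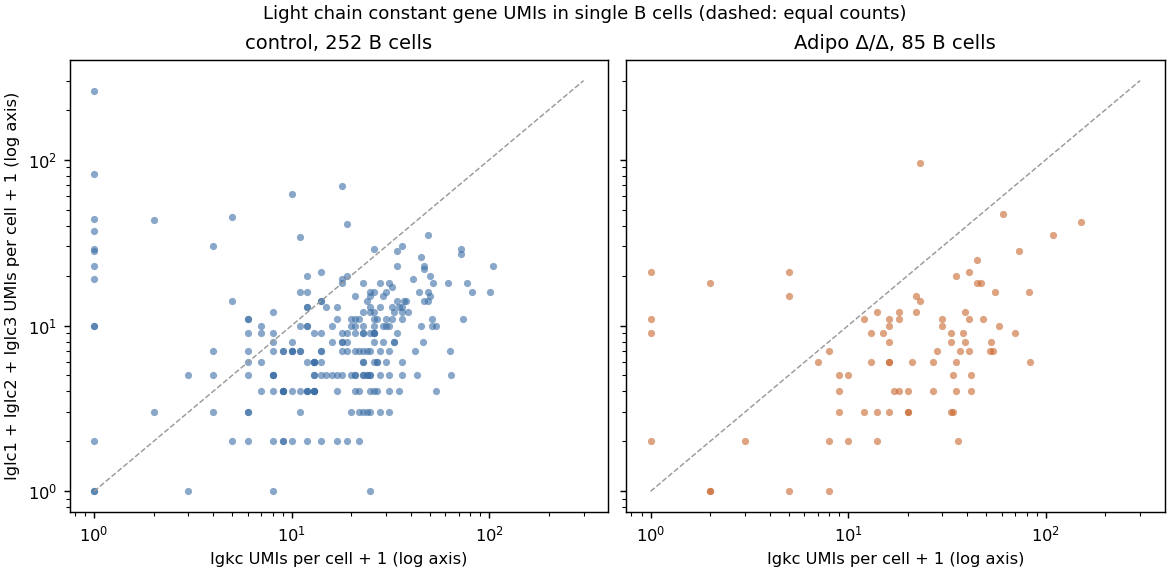
UMIs of *Igkc* (x axis) and of *Iglc1*, *Iglc2* and *Iglc3* in sum (y axis) in each B cell, both plus 1 on log axes, with the control library on the left and the Adipo Δ/Δ library on the right; the dashed line marks equal counts. Most cells lie under the line with lambda UMIs above 0, and a smaller group lies above it, 39 and 7 of the cells with at least 3 light chain UMIs.

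Cells with and without follicular marker UMIs were then set side by side. After thinning, 45 of 203 control B cells, or 22.2% (16.6 to 28.5), and 16 of 69 Adipo Δ/Δ B cells, or 23.2% (13.9 to 34.9), held neither *Ighd* nor *Fcer2a*. The split is a range and not a cell type: 62 and 14 of the cells with a UMI held exactly 1. With all UMIs counted the shares without fell to 13.5% and 12.9%. Of the thinned cells, those without the markers were deeper before thinning. Their medians were 2258 and 3945.5 UMIs, against 1940 and 2164 in cells with the markers. B lineage genes were found on both sides. *Cd79a* stood at 3049 CPM in cells without and 3664 CPM in cells with the markers, *Ighm* at 4180 and 3720, and *Ly6d*, a surface protein of the B lineage, at 2131 and 1957. The follicular gene *Klf2* stood at 1115 and 1038 CPM, a ratio of 1.07 (0.806 to 1.42).

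Genes that differed across the split were of several kinds. *Cr2* was lower in cells without the markers, with 1 thinned UMI against 34, a ratio of 0.102 (0.00250 to 0.606), and so was *Id3*, an inhibitor of E proteins, with 1 against 29, a ratio of 0.119 (0.00292 to 0.719). *Plac8* was higher without them, at 918 against 370 CPM, a ratio of 2.48 (1.73 to 3.55), and its UMIs lay in 16 of the 45 control and 9 of the 16 Adipo Δ/Δ cells. *S100a6* was also higher, at 525 against 156 CPM, a ratio of 3.35 (2.00 to 5.63), from 6 cells of each library. *Gzma* and *Ccl5*, genes of cytotoxic lymphocytes, led the list with ratios of 5.76 and 3.87, and 18 of 20 *Gzma* UMIs and 16 of 19 *Ccl5* UMIs lay in 1 cell. These ratios are descriptions over 954 genes with at least 30 thinned UMIs, whose median was 0.983. They include the cells holding another type's transcripts.

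Variation among the B cells was described by the variance of each gene over its mean. Over 5124 genes found in at least 5 of 272 thinned cells, it had a median of 0.985. It was 268 for *Hbb-bs* and between 55.3 and 164 for the other haemoglobin genes. It was 33.7 for *Gm42418*, 14.5 for the nuclear RNA *Malat1*, 12.7 for *Gzma*, 9.97 for *Iglc1*, 4.38 for *S100a6* and 4.01 for *Igkc*. Among the 15 most variable genes, *Iglc1* and *Igkc* were the antibody genes.

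B cells made up a smaller share of leukocytes in the Adipo Δ/Δ library. The share was 11.1% (9.80 to 12.4) in the control and 4.22% (3.38 to 5.19) in the Adipo Δ/Δ library, a ratio of 0.381 (0.295 to 0.489). Among B and T cells it was 43.2% and 27.3%, a ratio of 0.632 (0.489 to 0.812), and among kept cells without a *Csf1r* UMI 18.1% and 8.29%, a ratio of 0.457 (0.353 to 0.587). The share was lower with each of these denominators, and T cells took 14.5% and 11.2% of kept cells, a ratio of 0.772 (0.649 to 0.917). With a stricter mitochondrial limit of 2%, 105 of 1306 and 20 of 889 cells were B cells, a ratio of shares of 0.280 (0.164 to 0.454). The spread of this share between mice was not measured.

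Within the B cells, the libraries were compared over 1638 genes with at least 50 UMIs in both together. A ratio past 2-fold was used as the mark of difference. By it 37 genes (2.26%) were higher and 15 (0.916%) lower in Adipo Δ/Δ B cells. The median ratio was 1.06 in B cells and 1.16 in T cells over the same genes. With median-of-ratios scaling the split was 26 higher and 23 lower, and it was 26 and 25 when haemoglobin genes, *Gm42418*, *Gm26917* and *Lars2* were left out of the total, which shifted the median by -0.11 on the log2 scale. Of the 37 higher genes, 14 drew over 25% of their Adipo Δ/Δ UMIs from 1 cell and 19 were still past 2-fold without the top cell of each library, as were all 15 lower genes.

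**Figure D4:**
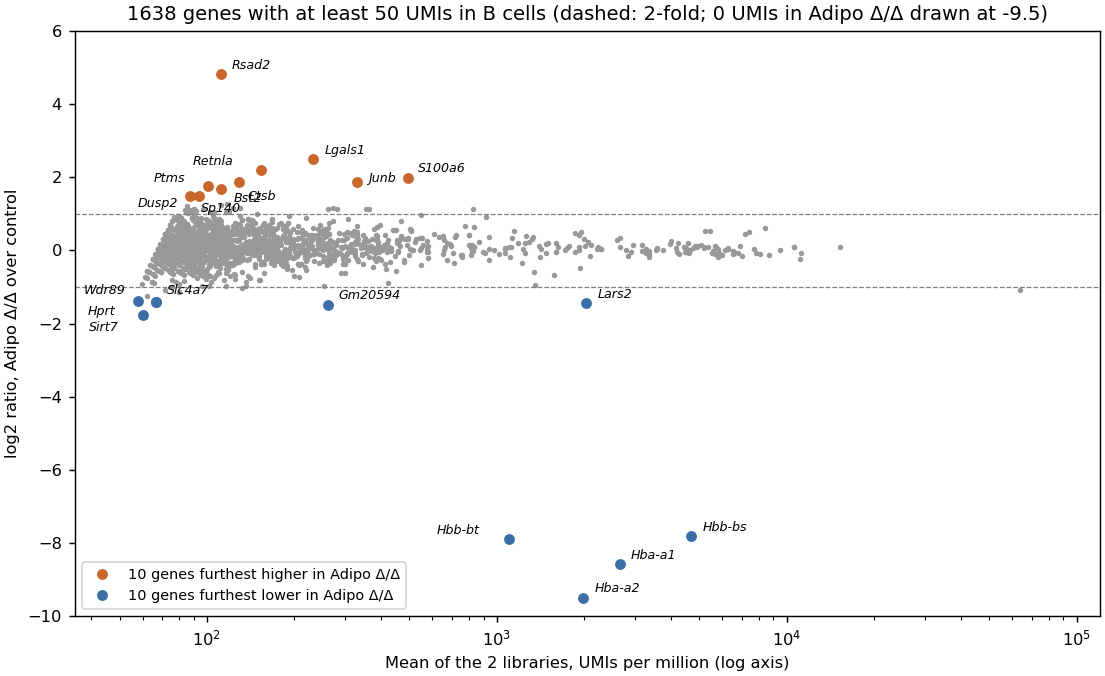
Difference between the libraries as the log2 of the Adipo Δ/Δ level over the control level (y axis) against the mean level in both libraries' B cells (x axis, CPM, log scale) for the 1638 genes tested, with the 10 leading genes on each side in colour. Most genes lie between the dashed 2-fold lines, the haemoglobin genes lie far below (*Hba-a2*, with 0 UMIs in the Adipo Δ/Δ library, is drawn at a set position), and *Rsad2* lies highest at a log2 ratio of 4.83.

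Among the higher genes, *Junb*, a subunit of the AP-1 transcription factor, had 74 UMIs (141 CPM) in control B cells and 113 UMIs (520 CPM) in those of the Adipo Δ/Δ library, a ratio of 3.70 (2.73 to 5.02). It was 3.16 without the top cells and was found in 53 of 252 and 26 of 85 cells. After thinning it was found in 13.3% (8.95 to 18.8) and 21.7% (12.7 to 33.3) of B cells and in 12.5% and 21.6% of T cells, and the T cell ratio of levels was 1.49 (1.29 to 1.72). *Dusp2*, a phosphatase induced by activation, had a ratio of 2.79 (1.60 to 4.92) from 26 and 30 UMIs, spread over 22 and 18 cells. Of the 113 Adipo Δ/Δ UMIs of *Junb*, 23 lay in 1 cell. The cell of 10472 UMIs named above held 22 more, and the cell with the neutrophil transcripts held 14.

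Others rested on single cells. *Rsad2*, an antiviral enzyme induced by interferon, had 4 and 47 UMIs, and each number came from 1 cell. The same Adipo Δ/Δ cell, which held the neutrophil transcripts, carried 38 of 42 UMIs of *Isg15*, another interferon-induced gene. *Bst2* (tetherin) had 28 and 37 UMIs, 25 of the 37 in the Siglech cell, and its ratio went from 3.20 to 1.26 without the top cells. *Lgals1*, a galactose-binding lectin, had 37 and 86 UMIs, 46 of the 86 in the cell with the most B-1 UMIs, and its ratio went from 5.63 (3.78 to 8.51) to 4.21 (2.46 to 7.36). *S100a6*, a calcium-binding protein, went from 3.98 (3.10 to 5.13) to 2.28 (1.66 to 3.13), since the same cell held 91 of 171 UMIs.

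Still others stood far higher in myeloid cells. *Retnla*, which alternatively activated macrophages secrete, had 29 UMIs in 22 control and 55 UMIs in 35 Adipo Δ/Δ B cells, 55.1 and 253 CPM, a ratio of 4.59 (2.88 to 7.47). In T cells it stood at 48.8 and 298 CPM, a ratio of 6.12 (4.78 to 7.92), and in myeloid cells at 797 and 4705 CPM. The B cell levels were thus close to those of T cells. After thinning, *Retnla* UMIs were found in 4.93% (2.39 to 8.87) and 21.7% (12.7 to 33.3) of B cells and 3.85% (2.00 to 6.62) and 10.8% (6.97 to 15.8) of T cells, and before thinning in 8.73% and 41.2% of B cells and 11.8% and 42.9% of T cells. Whether these UMIs came from B cells was not tested. *Ctsb*, the protease cathepsin B, stood at 55.1 and 202 CPM in B cells and at 61.0 and 136 CPM in T cells.

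**Figure D5:**
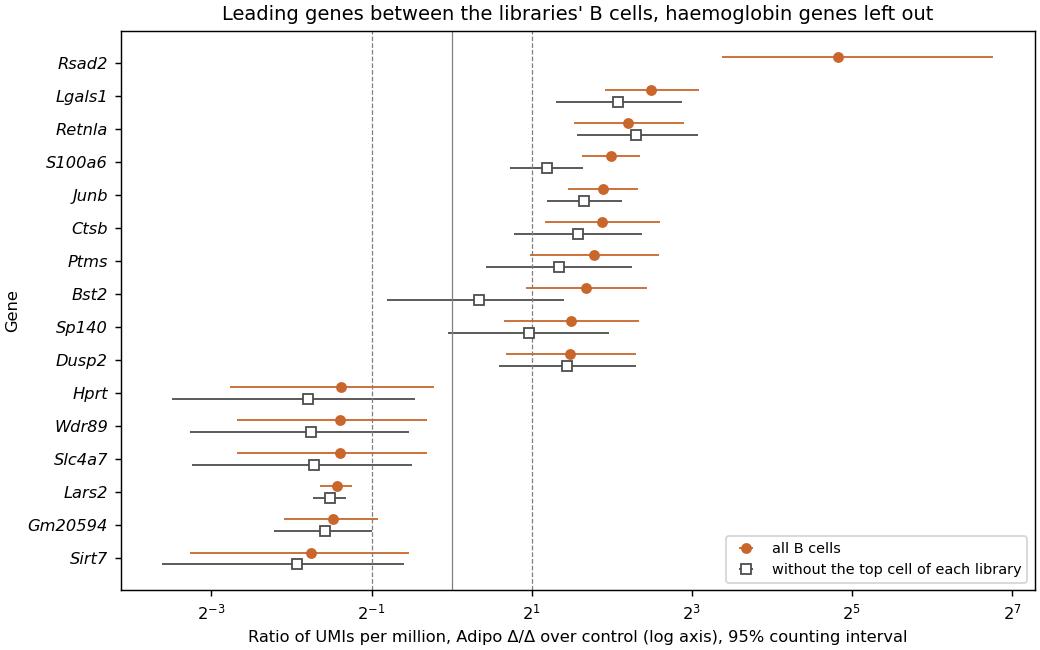
Ratio of Adipo Δ/Δ over control (x axis, log scale) for the leading genes other than haemoglobin, with 95% counting intervals, over all B cells (filled orange circles) and without the cell of each library that held most of the gene's UMIs (open squares). *Bst2* stands at 1.26 without the top cells, *Rsad2* has no UMIs left, and the lower genes change little.

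On the lower side stood the 4 haemoglobin genes, led by *Hba-a2* with 2094 and 0 UMIs, at least 288-fold lower against a floor of 3 UMIs in the Adipo Δ/Δ library. This fold rests on the 2 control cells with the most haemoglobin, since without the cells holding another type's transcripts *Hba-a2* had 8 and 0 UMIs, with an interval of the ratio from 0 to 1.50. Haemoglobin UMIs were found in 21.0% and 3.53% of B cells and in 17.8% and 2.65% of T cells, so the libraries differed in these transcripts in both classes. *Lars2*, a mitochondrial leucyl-tRNA synthetase gene, went from 2977 to 1100 CPM in B cells, a ratio of 0.369 (0.321 to 0.424), and its T cell ratio was 0.410. *Gm42418* had ratios of 0.471 and 0.498 in B and T cells. *Wdr89* had ratios of 0.380 and 0.384. *Sirt7*, a deacetylase of the nucleolus, was lower in B cells by a ratio of 0.296 (0.104 to 0.692) from 49 and 6 UMIs, and its T cell ratio was 1.08 (0.787 to 1.48). *Hprt*, the purine salvage enzyme, had 44 and 7 UMIs, a ratio of 0.385 (0.146 to 0.862), against 1.45 in T cells. Over all lower genes, 7 of 15 were also past 2-fold in T cells, and 5 of the 37 higher genes were. The share of all tested genes past 2-fold in T cells was not counted, so these overlaps have no background beside them and are not read further.

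Genes of antigen reception were compared next. Of the 21 genes of the receptor and its signal relay, 18 were tested, none lay past 2-fold, beside 2.26% and 0.916% of all genes higher and lower, and their median ratio was 1.04. With so low a share over all genes, the count says little about this list. *Cd79b* went from 1911 to 2232 CPM, a ratio of 1.17 (1.05 to 1.30), while *Cd79a* went from 3584 to 3143 CPM, a ratio of 0.877 (0.802 to 0.958). The kinases *Syk* and *Lyn* had ratios of 1.38 (1.02 to 1.86) and 0.767 (0.521 to 1.11). Among 7 tested inhibitors of the receptor the median was 0.876, and the lowest was *Cd72* with 71 and 15 UMIs, a ratio of 0.511 (0.272 to 0.901). No gene of this list lay past 2-fold.

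Antigen presentation genes had a median ratio of 1.08, beside 1.06 over all genes tested. None of the 12 tested MHC class II genes lay past 2-fold, beside 2.26% and 0.916% of all genes higher and lower, so this count says little about the list. *H2-Aa* stood at 4739 and 5089 CPM. *Ciita*, the master regulator of these genes, had the highest ratio, 1.81 (1.21 to 2.68), from 63 and 47 UMIs. In T cells, where class II transcripts were few, the median ratio of the tested genes was 3.33 and *H2-Aa* went from 34.0 to 117 CPM. *Cd74*, the invariant chain that escorts class II molecules, stood at 2708 and 8636 CPM in myeloid cells.

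Transcription factors of the lineage had a median of 1.05. None of 20 tested lay past 2-fold, beside 2.26% and 0.916% of all genes higher and lower, so this count too says little. The interferon regulatory factor *Irf8* had a ratio of 1.38 (1.02 to 1.84), which was 0.929 (0.645 to 1.32) without the cells holding another type's transcripts. *Tcf4*, shared with plasmacytoid dendritic cells, had 15 of its 41 Adipo Δ/Δ UMIs in the Siglech cell and a ratio of 1.03 that became 0.732.

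Immediate early genes are switched on within minutes of a stimulus and also by tissue digestion. Of 11 tested members, 3 lay past 2-fold higher (*Junb*, *Ier2* and *Dusp2*) and none lower, beside 2.26% of all genes higher, and their median was 1.51 in B cells and 1.38 in T cells. It was 1.48 with 2 genes past 2-fold without the cells holding another type's transcripts, where *Ier2* went from 2.42 to 1.64 (0.926 to 2.84). Below the count minimum, *Fos* had 11 and 30 UMIs, a ratio of 6.60 (3.22 to 14.6) with 13 of the 30 in 1 cell and a ratio of 3.96 (1.75 to 9.35) without other-type cells, and *Egr1* had 0 and 10 UMIs. The summed level of the list per cell had medians of 2883 and 3788 CPM. The 4 cells with the most held 138 of the list's 1624 UMIs in the control library and 281 of 1057 in the Adipo Δ/Δ library.

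Heat shock genes gave a similar picture. Of 7 tested, *Hspa8* and *Dnaja1*, a chaperone and its partner, lay past 2-fold higher, beside 2.26% of all genes. The median was 1.43 in B cells and 1.87 in T cells. *Hspa8* went from 519 to 1132 CPM, a ratio of 2.18 (1.83 to 2.60), and from 836 to 1566 CPM in T cells. After thinning it was found in 35.5% (28.9 to 42.5) of control and 58.0% (45.5 to 69.8) of Adipo Δ/Δ B cells, and in 50.3% and 67.6% of T cells. *Dnaja1* had a ratio of 2.26 (1.65 to 3.08). Whether cell handling differed between the libraries was not tested.

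Of the interferon-stimulated genes, 6 were tested and *Bst2* was the 1 past 2-fold, beside 2.26% of all genes higher, with the list's median at 1.23. *Ifi27l2a* had a ratio of 1.57 (1.32 to 1.86) in B cells and 2.58 in T cells, and *Ly6e* a ratio of 1.24 (1.11 to 1.39). The 12 tested genes of the mitochondrial genome's respiratory chain had a median ratio of 1.37 in B cells and 1.05 in T cells. In B cells 11 of the 12 were above 1 and none lay past 2-fold. The list's sum went from 30504 to 41655 CPM in B cells and from 28746 to 30345 CPM in T cells. In myeloid cells it went from 15331 to 27857 CPM, so a rise was not particular to B cells. Over all 1638 genes tested the B cell median was 1.06, with 2.26% and 0.916% past 2-fold higher and lower. *mt-Co1*, a subunit of cytochrome oxidase, stood at 6154 and 8692 CPM in B cells, a ratio of 1.41 (1.33 to 1.49). In homing genes the median of 12 tested was 1.30. *Selplg*, the ligand of P-selectin, was the 1 past 2-fold at 2.02 (1.14 to 3.55), beside 2.26% of all genes higher. In 1 cell lay 10 of its 25 Adipo Δ/Δ UMIs, and its ratio was 0.779 (0.282 to 1.88) without the cells holding another type's transcripts. *Cxcr4*, the chemokine receptor of marrow retention, had a ratio of 1.86 (1.12 to 3.08), or 1.69 (0.975 to 2.86) without other-type cells, with shares of 7.39% and 17.4% of thinned B cells and 3.53% and 2.82% of thinned T cells. *Cxcr5* and *Ccr7*, the receptors for follicles and lymph nodes, had ratios of 0.772 (0.455 to 1.26) and 0.792 (0.528 to 1.16), and *Cxcr3* had no UMI in B cells of either library.

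Shorter lists gave few tested genes. Of the Toll-like receptors and their adaptors 3 were tested, with *Cd180*, a receptor that drives B cell growth, the highest at 66.5 and 124 CPM, a ratio of 1.87 (1.09 to 3.17), or 1.63 (0.896 to 2.90) without other-type cells. The 4 tested costimulation genes had a median of 1.02 and the 5 tested survival genes one of 1.08. None lay past 2-fold, beside 2.26% and 0.916% of all genes higher and lower. The antibody secretion factors *Xbp1* and *Irf4* gave 16 and 15 UMIs and 26 and 8 UMIs, below the count minimum. The 7 age-associated B cell genes gave 31 and 33 UMIs, of which *Zeb2* gave 17 and 23 and *Tbx21*, the factor T-bet, 1 in each library.

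Transcripts of other cells were low in B cells and moved in different ways. T cell markers gave 10 and 9 UMIs in all, which the rule's limit on *Cd3* bears on. Of 15 monocyte and macrophage markers, 4 were tested and 1, *Tyrobp*, lay past 2-fold higher (2.19, and 1.12 without the cells holding another type's transcripts), beside 2.26% of all genes. The list's sum stood at 912 and 1491 CPM in B cells, 1275 and 2000 CPM in T cells and 34416 and 28357 CPM in myeloid cells. *Csf1r* was at 0 by the rule and *Adgre1* had 1 UMI in each library. The neutrophil list stood at 494 and 773 CPM, and 141 of the 168 Adipo Δ/Δ UMIs lay in 1 cell. The direction turned without the cells holding another type's transcripts, where both tested neutrophil genes lay past 2-fold lower, beside 18 of 1502 genes tested there. *S100a8* had 105 and 7 UMIs, a ratio of 0.171 (0.0670 to 0.364). *S100a9* had 130 and 13 UMIs, a ratio of 0.256 (0.133 to 0.453). The neutrophil list's sum was also lower in the T cells of the Adipo Δ/Δ library, at 2039 and 1140 CPM, and in its myeloid cells, at 4384 and 2041 CPM. The part of these transcripts in the differences above was not tested. Other types' transcripts lay in 6 and 4 cells. Without these cells, 21 of the 37 higher and 14 of the 15 lower genes had ratios past 2-fold. Of these genes, 17 and 10 still had at least 50 UMIs. *Lgals1*, *S100a6* and *Junb* had ratios of 9.79, 3.57 and 3.45. The Adipo Δ/Δ cells of 11220 and 10472 UMIs named above were not among the cells left out. Of the Adipo Δ/Δ UMIs then left, they held 91 and 24 of 131 for *S100a6*. For *Lgals1* they held 46 and 5 of 65, and for *Junb* 3 and 22 of 97. No ratio without both cells is given here.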

How the data were processed

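CD45+ Dapi- cells of brown adipose tissue were profiled with the 10x Genomics 3' v3.1 chemistry, 1 library per condition (2 samples). Per the labels and methods, the authors made the deposited counts (raw UMIs per gene and barcode, 32285 genes) with Cell Ranger 4.0.0 on the mm10 build, removed noise barcodes and limited mitochondrial reads to 2%. The deposited matrices still held barcodes above that limit, 2597 and 2381 barcodes in all (11327187 and 12028844 UMIs), and a 2% limit leaves fewer cells than the study states. A limit of 10% was used here. UMI counts of B cells were summed per library with Python 3.11.15, NumPy 2.4.6, SciPy 1.17.1 and pandas 2.3.3, scaled to a sum of 1000000 (CPM), and thinned to 1000 UMIs (seed 1) for shares. A gene was tested with at least 50 UMIs in both libraries together, and 2-fold was the limit. The ratio script was tested on simulated data. Named genes were those of the rule, the fixed lists, the 10 leading genes per direction, the 15 highest in B cells against other cells, the 10 per side of the *Ighd* and *Fcer2a* split and the 15 most variable. The members and lists were chosen with earlier results of these data known. Some genes of the lists are not reported here. Gene positions are from GENCODE vM21 (GRCm38). Alternative limits, scalings and filters were run.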

Additional observations from a re-analysis of the deposited data

How the results depend on the processing

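No paired analysis was possible because each condition was 1 library, and no replicate could be left out. The direction of the B cell share was the same under all alternatives run on it, with ratios from 0.280 to 0.443. With a mitochondrial limit of 2% the shares were 8.04% and 2.25%, their ratio 0.280, the ratio among B and T cells 0.457, and the shares of B cells without *Ighd* or *Fcer2a* 28.0% and 13.3%, against 22.2% and 23.2%. The control share was 9.24% with at least 500 genes and 9.57% with the rule applied to thinned cells. With 1 UMI of the selecting genes as the limit, 29.0% and 36.4% of cells lacked both markers and 67 genes were higher and 38 lower. Without the limits on *Csf1r* and *Jchain*, the Adipo Δ/Δ share was 5.46%, 37.2% of control cells lacked both markers, 79 genes were higher and 55 lower, and the median ratio was 0.941. With all UMIs of cells, 13.5% and 12.9% lacked both markers. The number of genes past 2-fold followed the filter on low counts: 243 higher and 135 lower with at least 20 UMIs, 2551 and 2555 with no filter, and 83 and 112 in thinned cells. Lower genes numbered 23 with median-of-ratios scaling, 31 as a mean over cells, and 25 with a total without haemoglobin genes, *Gm42418*, *Gm26917* and *Lars2*, where the median was 0.983. Higher genes numbered 12 in cells with at most 1 UMI of *Lyz2*, *S100a8* and *S100a9*, and 20 without the cells holding another type's transcripts. Without the top cell of each gene 20 were higher and 30 lower. These last settings (other-type cells, top cells and that total) were chosen after the data were seen. For 157 genes over the 14 alternatives that give gene ratios, 1898 of 2195 ratios stayed inside the gene's counting interval. Among the genes past 2-fold, directions turned for *Sp140* (0.793 at the 2% limit), for *Rsad2* (0), *Selplg* (0.753), *Gzma* (0.106) and *Tyrobp* (0.634) in cells with few *Lyz2*, *S100a8* and *S100a9* UMIs, and for *Selplg* as a mean over cells (0.995) and without the other-type cells (0.779). The cause was not tested. Depth limits what can be seen: in 69 thinned Adipo Δ/Δ cells, a gene with no UMI could by the floor of 3 counts have a UMI in up to 4.35% of cells.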

Other observations

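Genes of lipid handling and of secreted factors were mostly at the edge of detection in B cells. *Apoe*, the apolipoprotein of lipid transport, was the 1 lipid gene of 27 with enough UMIs to be tested, at 234 CPM in the control library and 258 CPM in the other, a ratio of 1.10 (0.789 to 1.52). After thinning it was found in 15.3% and 15.9% of B cells and in 2.24% and 5.16% of T cells. *Lpl*, the lipoprotein lipase, had 3 UMIs in 3 control cells and 12 UMIs in 10 Adipo Δ/Δ cells, a ratio of 9.68 (2.61 to 53.5). In T cells *Lpl* went from 3.85 to 92.6 CPM and in myeloid cells from 170 to 2010 CPM, against 5.70 and 55.2 CPM in B cells.

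*Ltb*, which encodes the lymphotoxin beta chain that organises lymphoid tissue, was the leading cytokine gene of B cells at 932 and 952 CPM and was found in 61.1% and 58.0% of thinned B cells and 42.0% and 46.0% of thinned T cells. *Il12a*, a chain of interleukins 12 and 35, had 11 UMIs in 11 control cells and 4 UMIs in 4 Adipo Δ/Δ cells, and none in the T or myeloid cells of either library. *Il10* and *Il6* had no UMI in B cells, which at 203 and 69 thinned cells allows, by a floor of 3 counts, up to 1.48% and 4.35% of cells with a UMI and sets no limit on cells that express the genes.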
